A study of Mus musculus with 75 samples.

Results

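Epididymal fat of mice made obese by a high-fat diet was compared in 4 groups, to ask whether AM251, an inverse agonist of the cannabinoid receptor CB1, changed gene expression differently in mice with the receptor and in mice without it. The groups were wild-type mice given AM251 (5 arrays, numbered 33 to 37), wild-type mice given vehicle (5 arrays, numbered 1 and 3 to 6), CB1 knockout mice given AM251 (5 arrays, numbered 45, 46 and 48 to 50) and CB1 knockout mice given vehicle (3 arrays, numbered 42 to 44). They are 18 of the 75 arrays of a study that also covered liver and chow-fed mice. Arrays were assigned by their titles. All mice were male and on a C57BL/6 background, the knockouts lacked the receptor in every tissue, and the wild-type mice were littermates. All ate a diet with 59.4% of its energy from fat for 14 weeks from 2 months of age, and AM251 (10 mg per kg) or 0.5% methylcellulose was given by gavage on each of 2 evenings, with tissue taken the next morning. The quantity of interest is the interaction, which is AM251 minus vehicle in wild-type (WT) fat, minus the same difference in knockout (KO) fat. A positive value says that the response was more positive in WT fat.

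CB1 is a G protein-coupled receptor for the endocannabinoids anandamide and 2-arachidonoylglycerol. It is abundant in brain and is also found on adipocytes and in other peripheral tissues, where its activation favours lipid storage. Blocking it also lowers food intake. The interaction measures a difference between the responses of WT and KO mice, and a gene can pass it without a WT response that passes on its own. Food intake of these animals was not analysed here.

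The arrays carry intensities that the authors had summarised per probe set by RMA. Their medians lay between 45.2 and 47.4, and each array correlated with the other fat arrays at a mean of 0.980 to 0.990. The adipocyte marker list (10 measured genes) had summed intensities of 71803 to 87832 in WT AM251 fat, 70380 to 82210 in WT vehicle fat, 80496 to 89131 in KO AM251 fat and 80893 to 88009 in KO vehicle fat, so all 18 arrays carried these genes at high levels. Cnr1, the gene of CB1, had group means of 5.29 ± 0.19 in WT AM251 fat, 6.18 ± 0.27 in WT vehicle fat, 6.20 ± 0.72 in KO AM251 fat (SD, n = 5 each) and 6.38 ± 0.47 in KO vehicle fat (SD, n = 3) on the log2 scale. It was not lower in KO fat, and where its probes lie with respect to the deletion is not given in the sources used here, so the probe set does not check the genotype. Its interaction was -0.71 ± 0.49 (adjusted p = 0.657), and a second probe set gave 0.16.

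An index was instead made from 3048 genes (15.9%) that differed between KO and WT vehicle fat. Its mean is 0% in WT vehicle and 100% in KO vehicle arrays by construction. WT vehicle arrays lay at -27.9 to 32.6%, and KO vehicle arrays at 93.9 to 109%. The index genes were chosen on these same vehicle arrays, so the gap between the vehicle groups follows from that choice. It does not check their genotype. WT AM251 arrays lay at -14.4 to 70.7%, and KO AM251 arrays 46, 48, 49 and 50 at 91.9 to 103%. KO AM251 array 45 lay at 57.5%, below the other KO AM251 arrays and within the WT AM251 range, where array 37 lay at 70.7%. The index thus did not separate the genotypes under AM251. The macrophage marker sum of array 45 was 27008 against at most 21230 on the other KO AM251 arrays. Markers of epididymis and testis summed to 15714 on WT AM251 array 36 and to 1834 on WT vehicle array 3, against 417 to 1195 on the other 16. Results are therefore also given without array 45, and without arrays 3, 36 and 45.

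**Figure D1:**
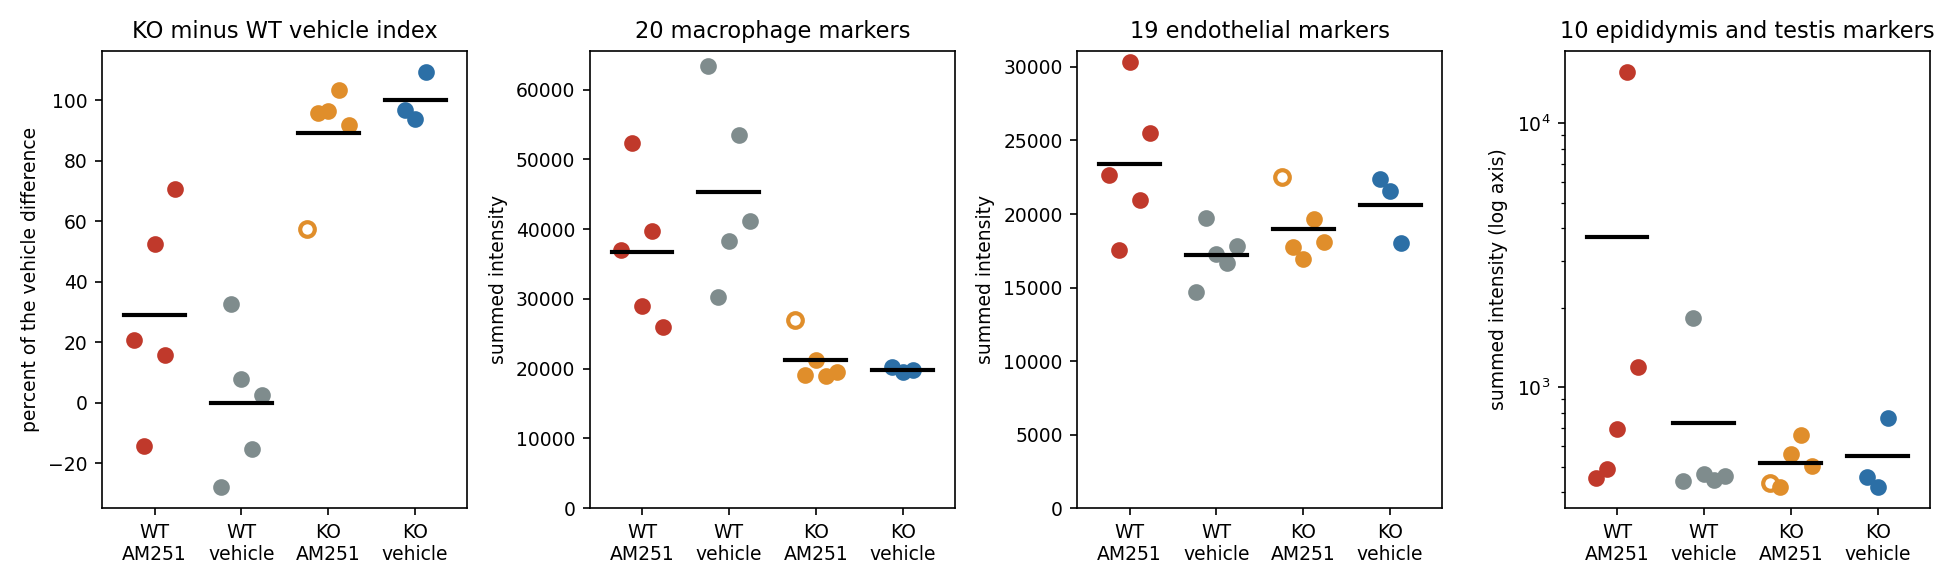
Array measures for the 18 arrays in the WT AM251, WT vehicle, KO AM251 and KO vehicle groups: the KO minus WT vehicle index in percent, and the summed intensities of 20 macrophage, 19 endothelial and 10 epididymis and testis markers (the last on a log axis). Each point is an array, the bar is the group mean and the open symbol is array 45, which lies at 57.5% on the index and has the highest macrophage sum of the KO arrays.

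Of 19147 genes tested with limma, 78 (0.407%) had an interaction past an adjusted p of 0.05, 42 of them (0.219%) more positive and 36 (0.188%) more negative in WT fat. The genes with the largest positive values were Rbp7, which encodes an intracellular retinol-binding protein, Vnn1, a pantetheinase, Pck1, the cytosolic phosphoenolpyruvate carboxykinase, and Hcar1, the lactate receptor of adipocytes. The largest negative values belonged to Angptl8, a secreted inhibitor of lipoprotein lipase action, Mogat2, a monoacylglycerol acyltransferase, and the histone gene H3c15. Interactions among the 42 ran from 0.45 to 2.54 with a median of 1.04, and among the 36 from -2.58 to -0.42 with a median of -1.07. At an unadjusted p under 0.05 there were 2070 genes (10.8%).

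Among the 42, the median AM251 effect was 0.60 in WT fat and -0.46 in KO fat, and among the 36 it was -0.68 in WT fat and 0.36 in KO fat. In all 78 the 2 effects had opposite signs. The 78 were chosen by the difference of these effects, which favours opposite signs and large values in both genotypes, so the medians and the counts that follow describe the chosen genes and test neither effect. The WT effect alone passed the threshold in 57 of them, while 47 had an unadjusted p under 0.05 in KO fat. The WT AM251 and WT vehicle arrays did not overlap for 59 of the 78 (all genes, 2.61%), and the KO AM251 and KO vehicle arrays for 26 (all genes, 3.43%).

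**Figure D2:**
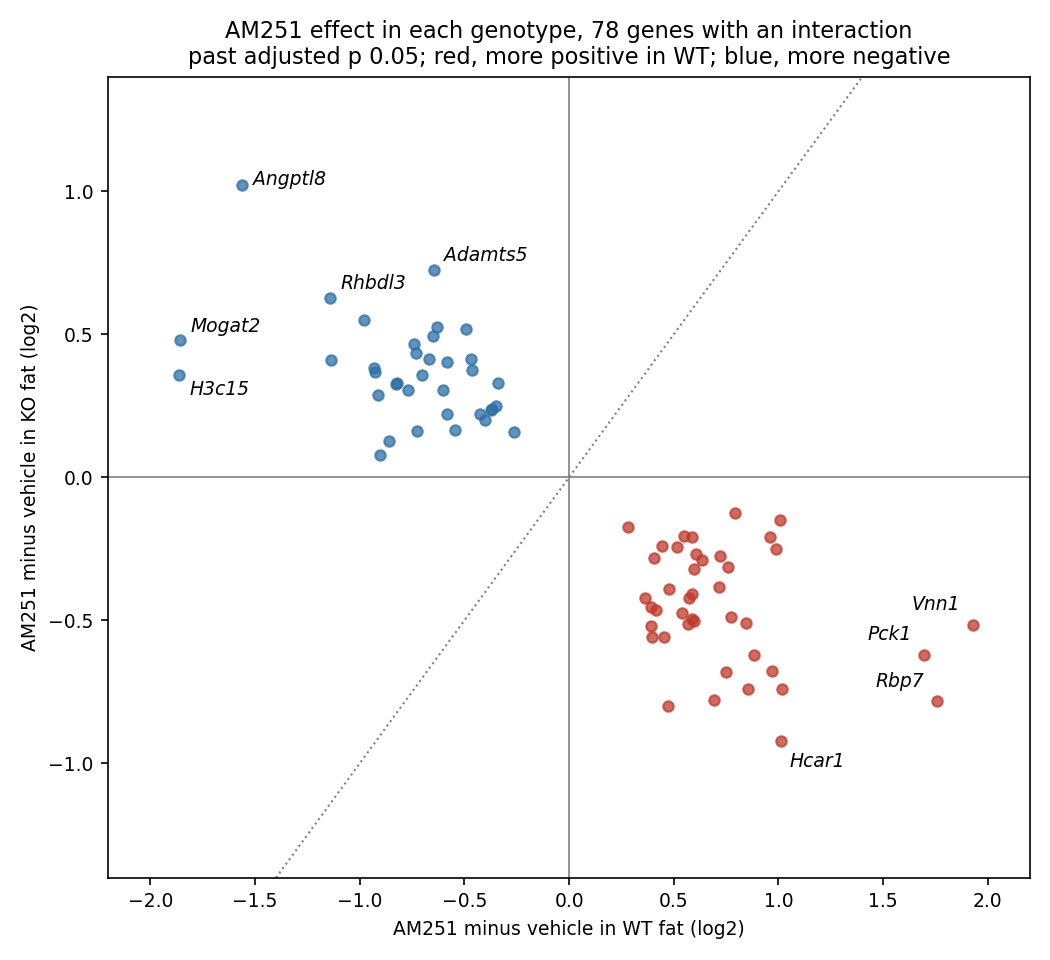
The AM251 effect (AM251 minus vehicle, log2) in WT fat on the horizontal axis and in KO fat on the vertical axis for the 78 genes whose interaction passed the threshold. Red points are more positive and blue points more negative in WT fat, the dotted line marks equal effects, and all 78 lie in the 2 quadrants of opposite sign.

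Within a single genotype the numbers were unequal. AM251 changed 213 genes (1.11%) in WT fat, of which 92 (0.48%) rose and 121 (0.632%) fell. In KO fat 0 genes passed with limma, and 712 (3.72%) had an unadjusted p under 0.05, where 957 would be expected by chance. The KO comparison rests on 5 and 3 arrays. It also held array 45, and without it the count was again 0.

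Rbp7, a retinoid-binding protein found in adipocytes and endothelium and a known target of PPARγ, had the largest positive interaction. Its log2 intensity was 10.80, 9.79, 11.54, 10.96 and 11.05 on the WT AM251 arrays in the order 33 to 37, against 8.75, 8.71, 8.92, 9.30 and 9.68 on the WT vehicle arrays 1, 3, 4, 5 and 6. In KO fat it was 10.14, 9.11, 9.09, 9.35 and 9.12 with AM251 on arrays 45, 46, 48, 49 and 50, and 10.57, 10.53 and 9.34 with vehicle on arrays 42 to 44. The WT groups did not overlap and every AM251 value was the higher, whereas in KO fat AM251 arrays 46, 48 and 50 lay below all vehicle arrays and arrays 45 and 49 within their range. The effect was 1.76 ± 0.25 in WT and -0.78 ± 0.28 in KO fat, with an interaction of 2.54 ± 0.38 (adjusted p = 0.0022). Rbp7 was the only gene past the threshold in all 18 fits that each left out 1 array, with a range of 2.33 to 2.94. Without array 45 the value was 2.73.

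Pck1 supplies glycerol phosphate for triglyceride re-esterification in fat. The WT AM251 arrays had 12.38, 11.40, 13.13, 12.23 and 13.22, against 10.69, 11.06, 10.35, 10.63 and 11.15 on the WT vehicle arrays. The corresponding KO values were 12.36, 11.71, 12.04, 12.54 and 12.27 with AM251 and 12.64, 13.12 and 12.65 with vehicle. All WT AM251 arrays were above all WT vehicle arrays, and all KO AM251 arrays were below all KO vehicle arrays. The interaction was 2.32 ± 0.38 (adjusted p = 0.00725), made of 1.70 ± 0.25 in WT and -0.62 ± 0.29 in KO fat (adjusted p = 0.999). Under vehicle, KO fat was 2.03 above WT fat, and the WT AM251 mean of 12.47 ± 0.74 was within 1 SD of the KO AM251 mean of 12.18 ± 0.32.

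**Figure D3:**
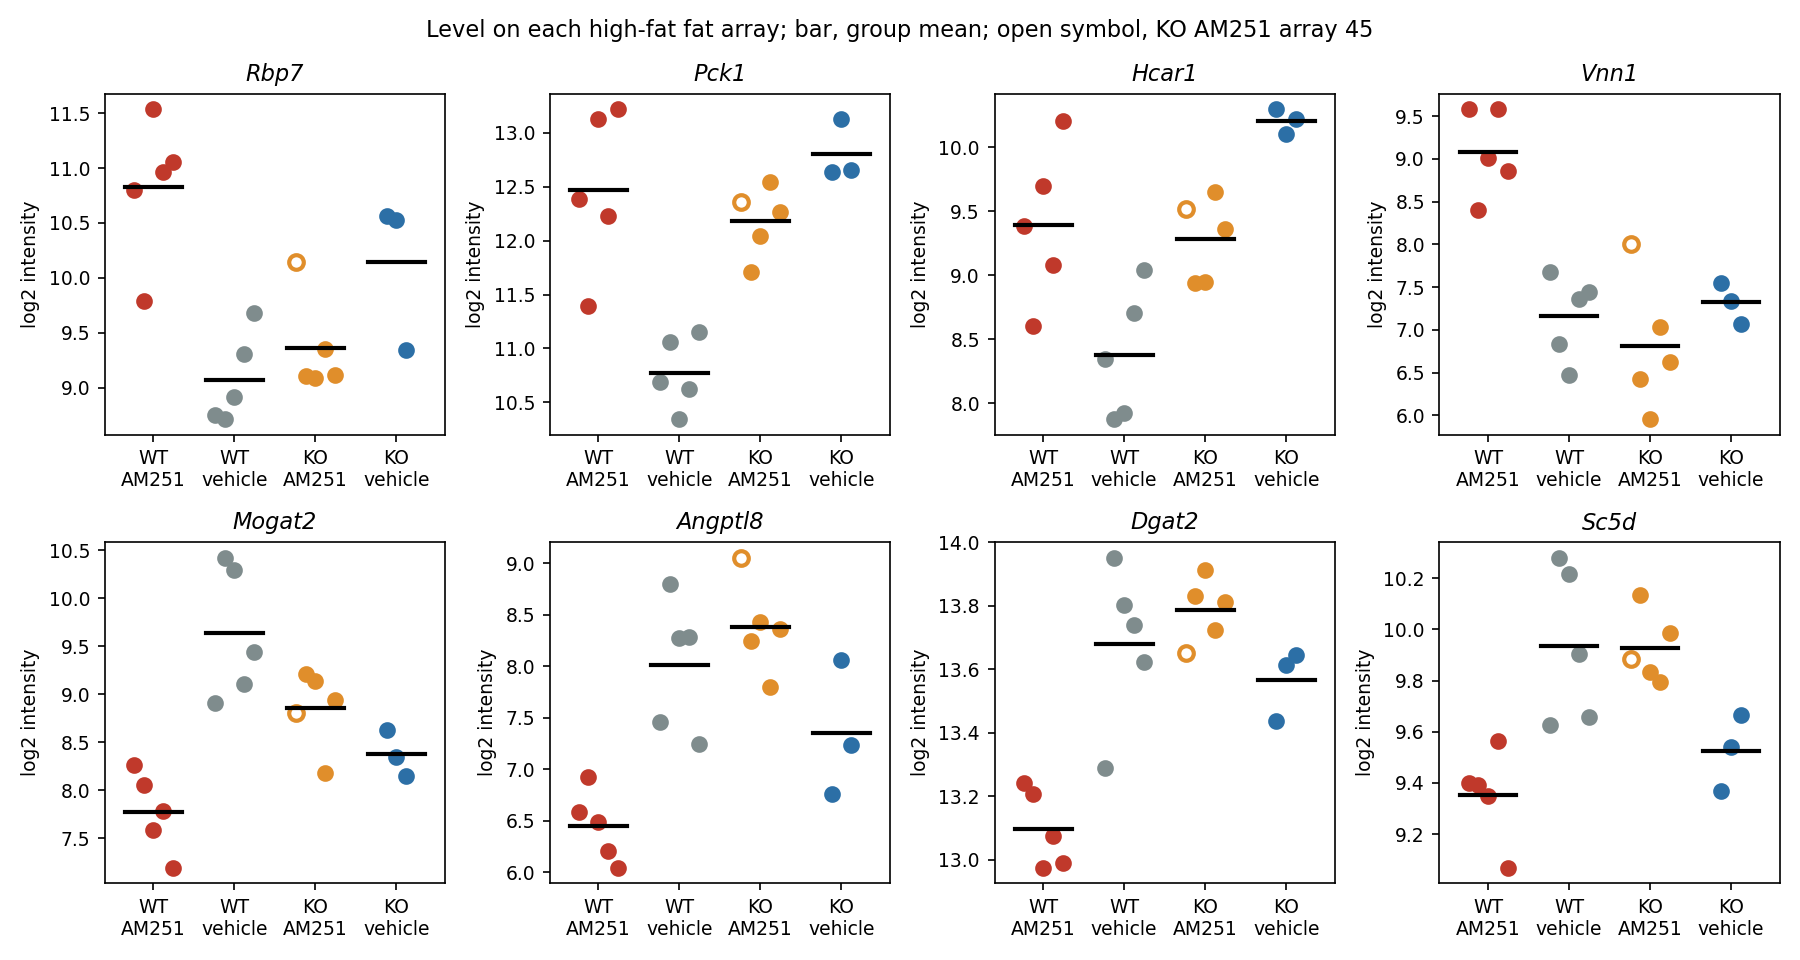
Log2 intensity of 8 genes on each array in the WT AM251, WT vehicle, KO AM251 and KO vehicle groups; each point is an array, the bar is the group mean and the open symbol is KO AM251 array 45. In the upper row Rbp7, Pck1, Hcar1 and Vnn1 are higher with AM251 in WT fat, and in the lower row Mogat2, Angptl8, Dgat2 and Sc5d are lower.

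Both hydroxycarboxylic acid receptors, which are Gi-coupled and restrain lipolysis in adipocytes, were among the called genes. Hcar1, the lactate receptor, had 9.38, 8.60, 9.70, 9.08 and 10.20 with AM251 and 8.35, 7.88, 7.92, 8.71 and 9.04 with vehicle in WT fat. The KO arrays had 9.52, 8.94, 8.95, 9.65 and 9.36 with AM251 and 10.30, 10.10 and 10.22 with vehicle. In WT fat the groups overlapped, and in KO fat all AM251 arrays lay below all vehicle arrays. The interaction was 1.94 ± 0.37 (adjusted p = 0.0158). Hcar2, the receptor for niacin and beta-hydroxybutyrate, averaged 7.41 ± 0.43 in WT AM251 fat and 6.93 ± 0.09 in WT vehicle fat, and 7.10 ± 0.31 in KO AM251 fat and 7.90 ± 0.06 in KO vehicle fat, with an interaction of 1.27 ± 0.30 (adjusted p = 0.0445). Its WT effect of 0.47 ± 0.20 did not pass (adjusted p = 0.263). Of 13 measured lipolysis genes these were the 2 called (all genes, 0.407%), 4 were positive and 1 negative at an unadjusted p under 0.05 (all genes, 4.79% positive and 6.02% negative), and the median was 0.17 against -0.02 for all genes.

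Of 27 measured genes of fatty acid oxidation and PPAR targets, 2 were called more positive in WT fat (all genes, 0.219%) and 0 more negative. At an unadjusted p under 0.05, 9 were positive and 0 negative (all genes, 4.79% and 6.02%), and the median was 0.36. In WT fat 5 of them rose and 0 fell (all genes, 0.48% and 0.632%). Vnn1, which makes pantothenic acid and cysteamine from pantetheine, had 9.58, 8.40, 9.01, 9.58 and 8.86 on the WT AM251 arrays, against 7.68, 6.84, 6.47, 7.36 and 7.44 on the WT vehicle arrays. KO fat averaged 6.81 ± 0.77 with AM251 and 7.32 ± 0.24 with vehicle (SD, n = 5 and 3). The lowest WT AM251 array was above every other array of the 18, while in KO fat array 45 was the highest and the groups overlapped. Its interaction was 2.44 ± 0.56 (adjusted p = 0.0423), and 2.74 without array 45. Slc22a5, the carnitine transporter of the plasma membrane, had 0.69 ± 0.16 (adjusted p = 0.0427), with means of 9.53 ± 0.22 in WT AM251 and 9.13 ± 0.12 in WT vehicle fat.

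Another pair of genes on this list missed the threshold with all arrays and passed without array 45, and in some other settings. Pdk4, the kinase that shuts down pyruvate dehydrogenase, had 11.66, 11.21, 11.25, 11.48 and 11.31 in WT AM251 fat and 10.40, 8.51, 9.03, 10.20 and 10.60 in WT vehicle fat, and 10.73, 9.84, 9.58, 9.56 and 9.01 in KO AM251 fat and 10.57, 10.15 and 9.44 in KO vehicle fat. WT AM251 arrays were tightly grouped and above all others, while the WT vehicle arrays spread widely. The interaction was 1.95 ± 0.48 (adjusted p = 0.055) with all arrays and 2.19 (adjusted p = 0.0188) without array 45, and a second, dimmer probe set of Pdk4 gave 2.79. Plin5, a lipid droplet protein of oxidative tissues, had 1.34 (adjusted p = 0.0332) without it and 1.20 (adjusted p = 0.0765) with all arrays. Both rose in WT fat, Pdk4 by 1.64 ± 0.31 and Plin5 by 1.11 ± 0.21.

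Among the genes called more negative were 2 enzymes of triglyceride assembly, Mogat2 and Dgat2, and Angptl8, a regulator of triglyceride clearance. Mogat2 had 8.27, 8.05, 7.59, 7.78 and 7.20 in WT AM251 fat, against 8.91, 10.42, 10.30, 9.11 and 9.44 in WT vehicle fat. KO fat had 8.80, 9.22, 9.14, 8.18 and 8.94 with AM251 and 8.63, 8.35 and 8.14 with vehicle. The WT groups were separate, and the KO groups overlapped, with KO AM251 array 49 within the range of the KO vehicle arrays. The interaction was -2.34 ± 0.47 (adjusted p = 0.025), and the WT fall was -1.86 ± 0.31. Dgat2, which catalyses the last acylation of triglyceride synthesis, averaged 13.10 ± 0.12 in WT AM251 and 13.68 ± 0.25 in WT vehicle fat, and 13.79 ± 0.10 in KO AM251 and 13.57 ± 0.11 in KO vehicle fat. Its interaction was -0.80 ± 0.18 (adjusted p = 0.0427), and the groups of both genotypes did not overlap, in opposite directions.

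Angptl8, an insulin-responsive gene of fat and liver, had 6.58, 6.93, 6.49, 6.21 and 6.04 in WT AM251 fat, against 7.46, 8.80, 8.28, 8.28 and 7.24 in WT vehicle fat. The KO values were 9.05, 8.24, 8.43, 7.79 and 8.36 with AM251 and 6.76, 8.06 and 7.24 with vehicle. All 5 WT AM251 arrays lay below all 5 WT vehicle arrays, while array 45 held the highest value of the 18. The interaction was -2.58 ± 0.60 (adjusted p = 0.0429), the most negative of all genes, with adjusted p = 0.0541 without array 45 and 0.11 without arrays 3, 36 and 45. Over the 25 measured genes of fatty acid and triglyceride synthesis, Mogat2 and Dgat2 were the 2 called (all genes, 0.407%), 1 gene was positive and 5 negative at an unadjusted p under 0.05 (all genes, 4.79% and 6.02%), 9 lay above 0, and the median was -0.14. Scd2, a stearoyl-CoA desaturase, passed without array 45, at -1.97 (adjusted p = 0.0421) against -1.86 ± 0.46 (adjusted p = 0.055) with all arrays.

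Cholesterol synthesis was the list with the lowest median interaction of the 40 lists examined. Of 19 measured genes 1 was called, more negative in WT fat (all genes, 0.188%). At an unadjusted p under 0.05, 15 were negative and 0 positive (all genes, 6.02% and 4.79%). All 19 values were below 0, from -1.32 to -0.10, with a median of -0.80 against -0.02 for all genes. The median AM251 effect was -0.59 in WT fat and 0.18 in KO fat. In WT fat 7 genes fell and 0 rose (all genes, 0.632% and 0.48%), and in KO fat 0 passed. Without array 45 the median interaction was -0.86, and 2 genes were called more negative (all genes, 0.266%). The median was -0.82 without arrays 3, 36 and 45.

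Sc5d, the sterol C5-desaturase late in the pathway, was the called gene. It had 9.40, 9.39, 9.35, 9.56 and 9.07 in WT AM251 fat and 9.62, 10.28, 10.21, 9.90 and 9.66 in WT vehicle fat, and 9.88, 10.13, 9.83, 9.80 and 9.98 in KO AM251 fat and 9.37, 9.54 and 9.66 in KO vehicle fat. AM251 arrays were all lower than vehicle arrays in WT fat and all higher in KO fat. The interaction was -0.98 ± 0.21 (adjusted p = 0.0328), and the other 2 probe sets of the gene gave -0.83 and -1.32. Dhcr7, the last reductase of the pathway, had -1.22 ± 0.30 (adjusted p = 0.055), Fdps, the farnesyl diphosphate synthase, -1.12 ± 0.28 (adjusted p = 0.055) and Hsd17b7, a ketosteroid reductase, -0.87 ± 0.22 (adjusted p = 0.0589). A second, dimmer probe set of Hsd17b7 gave -0.28. Fdps passed without array 45, with adjusted p = 0.0436.

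Because the interactions of these genes were negative together, their promoters were read from RefSeq (mouse build GRCm38.p6), as the 250 bases before the annotated start. Genes of this pathway are known targets of SREBP2, which acts with the CCAAT-binding factor NF-Y. The promoters of Sc5d, at chr9:42264301-42264550 on the minus strand, and Hsd17b7, at chr1:169969206-169969455 on the minus strand, are shown 5′ to 3′ with CCAAT or its reverse complement ATTGG in capitals.
Sc5d: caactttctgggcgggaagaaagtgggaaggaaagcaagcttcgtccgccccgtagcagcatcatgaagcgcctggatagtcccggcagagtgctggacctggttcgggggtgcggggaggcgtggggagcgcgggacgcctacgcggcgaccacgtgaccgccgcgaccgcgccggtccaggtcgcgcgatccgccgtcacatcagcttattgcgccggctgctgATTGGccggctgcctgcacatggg
Hsd17b7: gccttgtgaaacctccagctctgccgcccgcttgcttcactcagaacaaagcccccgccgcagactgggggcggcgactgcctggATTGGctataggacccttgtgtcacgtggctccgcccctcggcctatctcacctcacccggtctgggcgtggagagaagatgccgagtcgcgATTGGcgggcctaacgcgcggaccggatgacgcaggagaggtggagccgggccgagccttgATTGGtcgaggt
The Sc5d window held 1 such box and the Hsd17b7 window 3. Both are examples from the list. Hsd17b7 was not called, and the windows of Dhcr7 and Fdps are not shown. Over 19 promoters of 16 of the 19 measured genes, 16 promoters (84.2%) held a CCAAT box on either strand, against 33.8% of all 32851 promoters. TCACNCCAC, a form of the sterol regulatory element, was found in 1 of the 19 (5.26%; all promoters, 1.05%), and the E box CACGTG in 4 (21.1%; all promoters, 6.02%). For the genes called in the interaction, a CCAAT box was in 25% of 48 promoters (more positive) and 27.8% of 36 (more negative). Both shares were below the 33.8% of all promoters, and TCACNCCAC was in 0 of either set. These are matches of letters and not binding sites. Cholesterol synthesis genes are known SREBP2 targets, so their CCAAT share follows from the choice of list. A link to the interaction was not tested.

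Of 19 endothelial markers 1 was called more positive in WT fat (all genes, 0.219%), 10 were positive and 0 negative at an unadjusted p under 0.05 (all genes, 4.79% and 6.02%), and 18 lay above 0 with a median of 0.45. Cldn5, a tight junction protein of endothelium, had 11.63, 10.90, 12.08, 11.48 and 11.46 in WT AM251 fat and 10.71, 10.79, 10.71, 10.70 and 11.17 in WT vehicle fat, and 10.89, 9.77, 10.08, 10.61 and 10.62 in KO AM251 fat and 11.47, 11.10 and 10.94 in KO vehicle fat. KO AM251 arrays were all lower than KO vehicle arrays, and WT arrays 34 and 6 overlapped. Its interaction was 1.47 ± 0.34 (adjusted p = 0.0427), and its WT effect of 0.69 ± 0.22 did not pass (adjusted p = 0.118). Sox18, an endothelial transcription factor, and Gpihbp1, which carries lipoprotein lipase across capillaries, did not pass with all arrays and had 0.95 (adjusted p = 0.0253) and 0.80 (adjusted p = 0.0421) without array 45. The summed marker intensity was 17534 to 30320 in WT AM251 fat, against 14682 to 19742 in WT vehicle fat, and 16909 to 22508 in KO AM251 fat, against 18048 to 22348 in KO vehicle fat. In whole fat, more cells of a type and more RNA per cell cannot be told apart.

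Of 20 macrophage markers 0 were called, and 0 were positive and 4 negative at an unadjusted p under 0.05 (all genes, 4.79% and 6.02%), with a median of -0.44. Their summed intensity was 25931 to 52303 in WT AM251 fat, against 30234 to 63373 in WT vehicle fat, and 19018 to 27008 in KO AM251 fat, against 19470 to 20202 in KO vehicle fat. The WT ranges overlapped and lay above all KO arrays other than array 45. Cytokine and chemokine genes (26 measured) had 0 calls, 6 negative at an unadjusted p under 0.05 and a median of -0.31. Cell cycle genes (23 measured) had 0 calls, 7 negative and a median of -0.37, where 6.02% of all genes were negative at that p.

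Irf8, a transcription factor of the myeloid lineage, was called at -1.15 ± 0.25 (adjusted p = 0.0359). It had 9.24, 9.60, 9.01, 9.31 and 8.77 in WT AM251 fat and 10.47, 9.64, 9.87, 10.31 and 9.76 in WT vehicle fat, without overlap, and 9.19, 9.14, 9.01, 8.52 and 8.65 in KO AM251 fat and 8.82, 8.69 and 8.21 in KO vehicle fat. Calhm6, a calcium homeostasis modulator, had -1.20 ± 0.25, with means of 6.34 ± 0.31 in WT AM251 and 7.25 ± 0.25 in WT vehicle fat against 6.06 ± 0.14 in KO AM251 and 5.78 ± 0.16 in KO vehicle fat. Both were lower in KO than in WT fat under vehicle, Irf8 by -1.44 and Calhm6 by -1.48 on the log2 scale. The macrophage sum moved with genotype in the same way, and its part in these results was not tested.

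Of 17 measured genes of insulin signalling 1 was called (all genes, 0.407%). At an unadjusted p under 0.05, 2 were positive and 3 negative (all genes, 4.79% and 6.02%), and the median was 0.01. The called gene was Grb14, an adaptor that inhibits the insulin receptor. Grb14 had 8.49, 8.62, 7.87, 7.70 and 7.68 in WT AM251 fat, against 8.71, 8.75, 8.70, 9.08 and 8.77 in WT vehicle fat, with no overlap. The KO arrays had 8.47, 8.44, 8.66, 8.44 and 8.76 with AM251 and 8.36, 8.13 and 7.87 with vehicle, also without overlap and in the opposite direction. The interaction was -1.16 ± 0.27 (adjusted p = 0.0445). Igfals, the acid-labile subunit of circulating IGF complexes, had -1.30 ± 0.28 (adjusted p = 0.0355), with a WT fall of -0.93 ± 0.18.

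Several other genes had large interactions. The positive ones were 1.76 ± 0.35 for Vwa3a, 1.64 ± 0.30 for Etl4, 1.59 ± 0.36 for B430010I23Rik, 1.50 ± 0.35 for the methyltransferase Inmt, 1.43 ± 0.34 for the galactosyltransferase B3galt2 and 1.17 ± 0.22 for Pbld1. Lgals4 (galectin-4), Car4 (a membrane carbonic anhydrase) and Ephx2 (soluble epoxide hydrolase) had 1.35, 1.26 and 1.24, and all 3 rose in WT fat. Ephx2 stood at 12.06, 11.50, 11.98, 11.90 and 12.03 on the WT AM251 arrays, against 11.05, 10.48, 10.56, 11.31 and 11.13 on the WT vehicle arrays, without overlap. Lgals4 averaged 8.56 ± 0.25 in WT AM251 and 7.72 ± 0.26 in WT vehicle fat, and 7.61 ± 0.34 in KO AM251 and 8.12 ± 0.12 in KO vehicle fat. A second probe set of Lgals4, dim in fat, gave 0.05, and those of Etl4 and Pbld1 gave 0.39 and 0.43.

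Among the negative ones, Rhbdl3 (a rhomboid family gene) had -1.77 ± 0.34, Trabd2b (a Wnt-cleaving metalloprotease) -1.55 ± 0.34, Adamts5 (an aggrecanase) -1.37 ± 0.31 and Cdkn2b (the cell cycle inhibitor p15) -1.31 ± 0.31. Rhbdl3 is an example of separate WT groups, at 6.74, 6.86, 6.62, 6.35 and 7.03 in WT AM251 fat and 7.37, 8.50, 8.29, 7.67 and 7.47 in WT vehicle fat. Cyb5b (cytochrome b5 of the outer mitochondrial membrane), Rbm28 (an RNA-binding protein) and Diras2 (a small GTPase) had -1.15, -1.21 and -1.16, and the other 3 probe sets of Cyb5b gave -0.72, -0.70 and -0.60. H3c15 had -2.22 ± 0.50, and its value is uncertain because near-identical histone genes could share its probes. Dclk1, a doublecortin-like kinase, had -1.53 ± 0.33 on the brightest of 8 probe sets and -0.69 to 0.26 on the other 7.

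**Figure D4:**
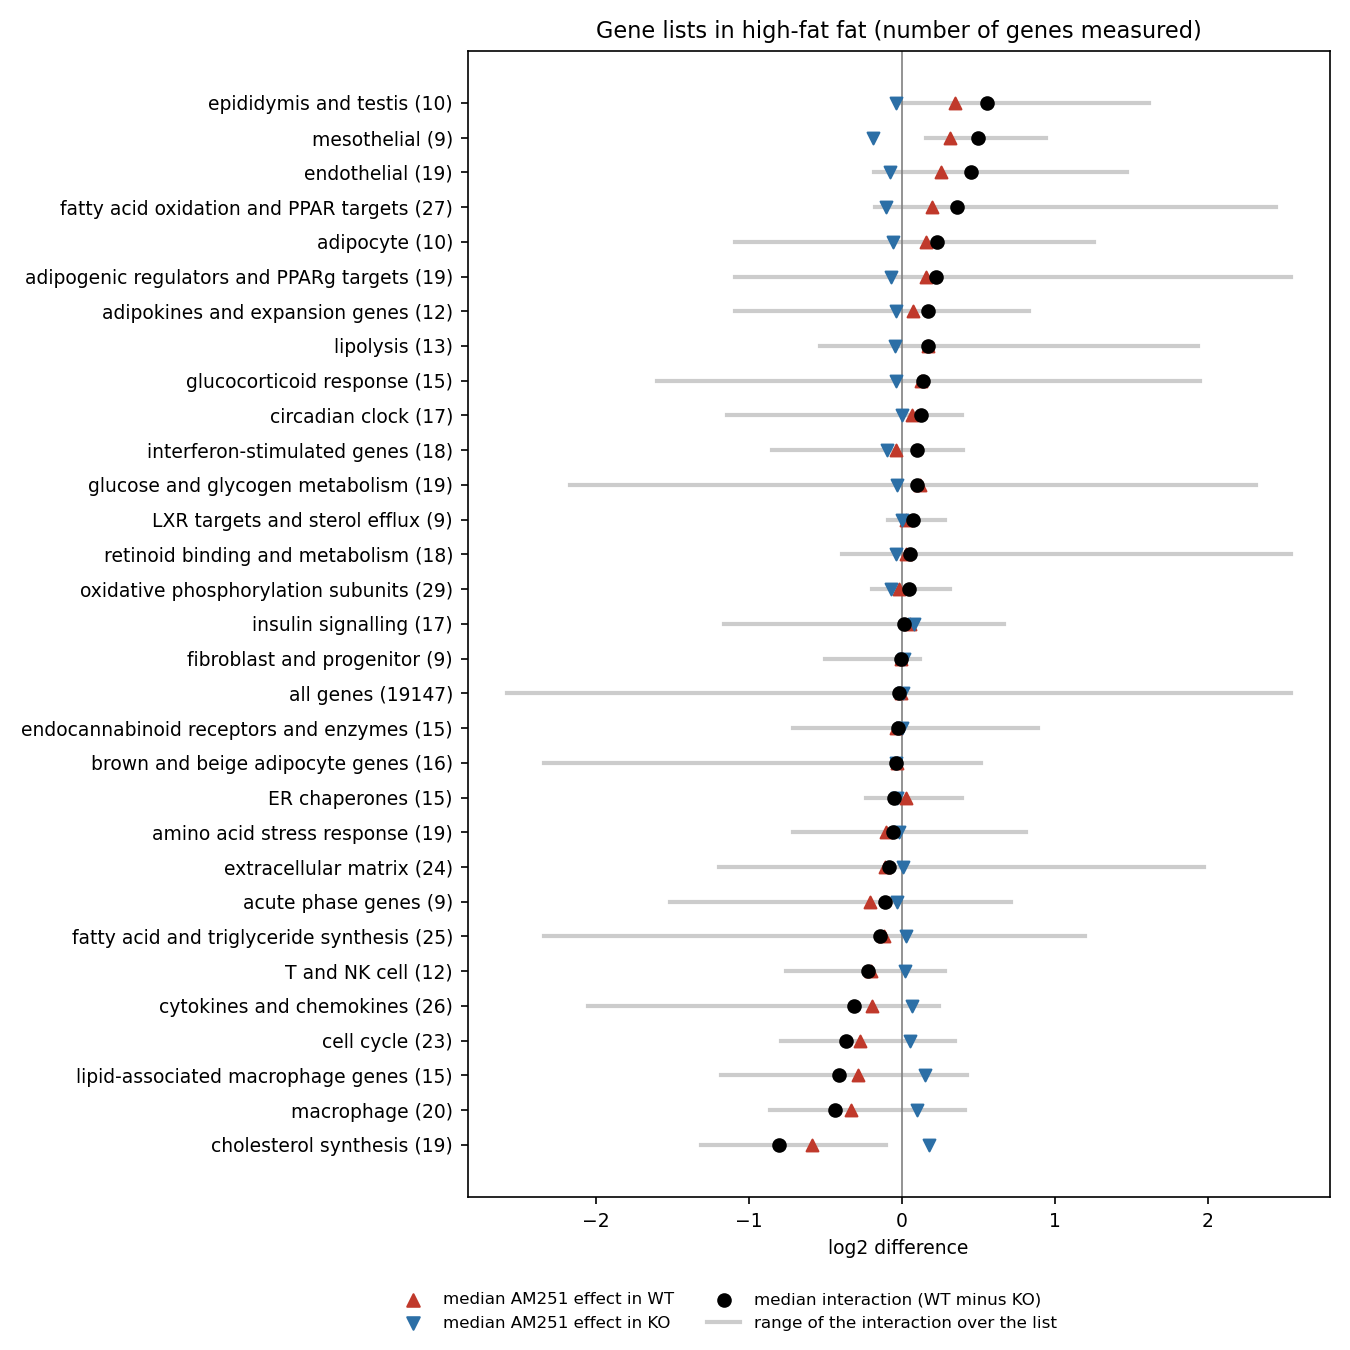
Median AM251 effect in WT fat (upward triangles), median effect in KO fat (downward triangles) and median interaction (circles) on a log2 axis, with the lowest and highest interaction of the members (grey bars), for 30 gene lists and all genes; the number of genes measured is in brackets. Cholesterol synthesis stands lowest with a median of -0.80, and the endothelial list has 0.45.

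Medians of the other lists varied in both directions. Oxidative phosphorylation subunits (29 measured) had a median of 0.05, brown and beige adipocyte genes (16) -0.04, endocannabinoid receptors and enzymes (15) -0.03, extracellular matrix (24) -0.09 and interferon-stimulated genes (18) 0.10, each with 0 calls. Adipogenic regulators and PPARγ targets (19) had 2 calls (all genes, 0.407%), Rbp7 and Pck1, and a median of 0.22. Mesothelial markers (9) had 0 calls, with all 9 values above 0 and a median of 0.50. Epididymis and testis markers (10) had 0 calls and a median of 0.56, with 0.23 without arrays 3, 36 and 45. Hepatocyte markers (8) had 0 calls and a median of 0.49, and lipid-associated macrophage genes (15) 0 calls and a median of -0.41, with 13 below 0. These lists differ in how strongly their genes are expressed, and the medians are descriptions.

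Leaving out KO AM251 array 45 raised the count to 130 (0.679%), 79 more positive and 51 more negative, of which 74 were among the 78. Of the 4 that no longer passed, Angptl8 stood at -2.41 (adjusted p = 0.0541), Mcoln2 at -0.95 (adjusted p = 0.0556), Inmt at 1.48 (adjusted p = 0.0501) and B3galt2 at 1.41 (adjusted p = 0.0503). The 10 largest of the 56 added genes were Pdk4, Scd2, Plin5, the fatty acid transporter Slc27a1 (1.52), Ivns1abp (1.52), Fbxo21 (1.50), the butyrophilin-like Btnl9 (1.49), Odf3l1 (-1.42), Fam110c (-1.31) and the palmitoyltransferase Zdhhc21 (-1.30). Dimmer probe sets of Ivns1abp gave 0.98, 0.10 and -0.14, and one of Zdhhc21 gave 0.02 with all arrays. Array 45 was the highest KO AM251 array for Rbp7, Vnn1, Plin5 and Ephx2, but it lay among the others for Pck1 and Sc5d. Without arrays 3, 36 and 45 the count was 115, of which 63 were among the 78.

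The count depended on single arrays in both genotypes. Across the 18 fits it ran from 1 without KO vehicle array 43 to 279 without WT AM251 array 34. Counts were 11 without WT AM251 array 35, 12 without array 37, 14 without WT vehicle array 4, 41 without WT vehicle array 5, 22, 11 and 18 without KO AM251 arrays 46, 48 and 50, and 10 and 30 without KO vehicle arrays 42 and 44. Of the 78, 32 were called in at least 9 of the 18 fits and 11 in at least 15. A fit of the 4 groups alone called 39 genes, 30 of them among the 78, and Rbp7, Pck1, Mogat2 and Angptl8 had adjusted p = 0.0329, 0.031, 0.031 and 0.031 there. Vnn1, Hcar2, Sc5d and Dgat2 also passed in that fit, while Hcar1 (adjusted p = 0.0507), Cldn5 (0.0601), Grb14 (0.0601), Slc22a5 (0.0827), Irf8 (0.1) and Ephx2 (0.123) did not. Without arrays 3, 36 and 45 the calls lost included Dgat2 (adjusted p = 0.0648), H3c15 (0.0648), Grb14 (0.0768) and Cdkn2b (0.0775), and Rbp7, Pck1, Hcar1, Vnn1, Mogat2, Sc5d and Irf8 passed. Of the 18 fits, Pck1 passed in 17, Hcar1 in 16, Mogat2 in 11, Sc5d in 10, Irf8 in 7, Dgat2 in 6, Vnn1 and Cldn5 in 5, Angptl8, Grb14 and Slc22a5 in 4 and Hcar2 in 3.

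**Figure D5:**
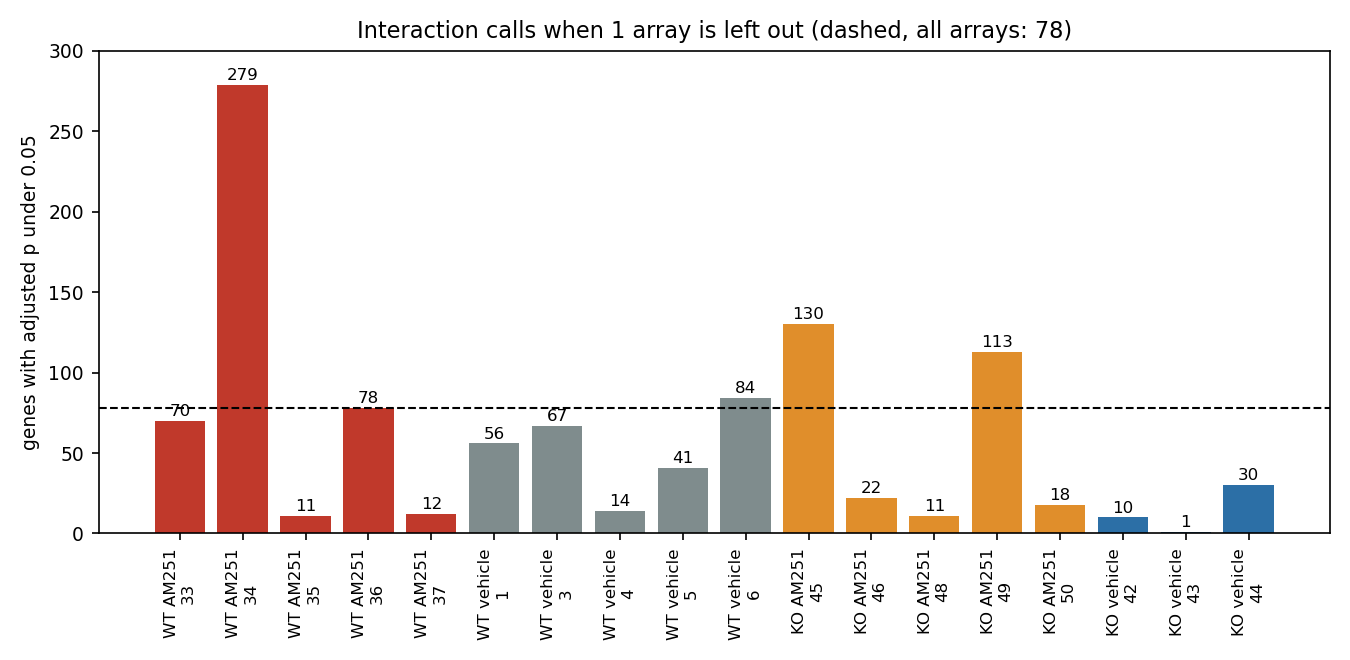
Number of genes whose interaction passed an adjusted p of 0.05 when 1 array was left out, for each of the 18 arrays in the WT AM251, WT vehicle, KO AM251 and KO vehicle groups; the dashed line is the count of 78 with all arrays. The bars run from 1 without KO vehicle array 43 to 279 without WT AM251 array 34.

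Genes were also sought whose array-to-array pattern within groups followed the leading ones, by Pearson's r over the 18 arrays after subtraction of each group's mean. Closest to Rbp7 were 1600014C10Rik (0.90), Apold1 (0.88), Fam189a2 (0.88), Tinagl1 (0.88) and Ypel5 (0.87), and closest to Pck1 were Agtr1a (0.93), Crls1 (0.90), Bhlhb9 (0.90), Slc7a10 (0.89) and Cxxc4 (0.88). Apold1 is an early response gene of endothelium, Crls1 makes cardiolipin and Agtr1a encodes an angiotensin II receptor. Of these look-alike genes only Bhlhb9 had a called interaction (1.08). Group means were subtracted, so likeness does not show a shared interaction. The arrays share tissue, array design and processing, and no p is given.

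Chow-fed mice of the same genotypes and treatments gave a test of whether the interaction differed between diets. The quantity tested was the interaction in high-fat fat minus that in chow fat. Group sizes differed between the diets, and the chow KO AM251 group held only arrays 20, 21 and 23. Of 19147 genes 2 passed (0.0104%). Acacb, which makes malonyl-CoA at the mitochondrion and so restrains fatty acid entry, had a difference of 3.37 ± 0.58 (adjusted p = 0.0346), with an interaction of 1.20 ± 0.41 in high-fat fat (adjusted p = 0.212) and of -2.17 ± 0.41 in chow fat (adjusted p = 0.0511). On the high-fat arrays it had 7.31, 7.53, 7.30, 6.93 and 8.56 in WT AM251 fat and 6.55, 6.57, 6.17, 7.20 and 6.52 in WT vehicle fat, with overlap. Mxra8, a matrix remodelling gene, had a difference of -1.16 ± 0.21 (adjusted p = 0.0346), with -0.71 ± 0.15 in high-fat fat and 0.44 ± 0.15 in chow fat. The interaction within chow fat alone passed for 1 gene (0.00522%), Fdps, at -1.91 ± 0.28 (adjusted p = 0.00142), where high-fat fat had -1.12 ± 0.28, and the diet difference for Fdps did not pass (0.79 ± 0.39, adjusted p = 0.546).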

How the data were processed

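Values are probe set intensities on a linear scale that the authors deposited, made with RMA per the submitters' processing notes; the RMA version and any genome build are not given in the sources used here. RMA normalizes and summarises probes, which compresses low intensities. All 75 columns were matched to titles, with 0 unused. Of 38385 probe sets, 24478 had 1 gene symbol, 65 several and 13842 were not listed. Each of 19147 genes took its probe set with the highest mean over the fat arrays.

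Log2 intensities of all 36 fat arrays (8 groups) went into a linear model in limma (version 3.58.1; R 4.3.3), with 1 mean per group, so that the groups share 1 estimate of spread. Two-sided moderated tests were adjusted over 19147 genes by Benjamini-Hochberg at 0.05. Differences are given ± standard error and means ± SD. The fit was tested on simulated data. The number of arrays limits the precision. The array number is read as a mouse; the labels do not state that arrays are separate animals, so p-values measure the spread between arrays.

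Named genes were the 15 largest in each direction past the threshold, those passing every leave-one-out fit, the 10 largest passing without array 45 but not with all arrays, up to 4 members with the smallest p per list, genes of the diet difference, Cnr1, and 5 most like Rbp7 and Pck1. Mcoln2 was named after its value was seen. Members, lists and rules were chosen with earlier results of these data known. Of 652 list symbols 554 were measured. Motifs were sought in the 250 bases before each RefSeq start.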

Additional observations from a re-analysis of the deposited data

Results flagged for a closer look

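Genotype differences of the AM251 effect that passed the interaction test are flagged because the WT and KO effects differ. They are 36 among the genes named. The positive ones were Rbp7 (2.54), Vnn1 (2.44), Pck1 (2.32), Hcar1 (1.94), Vwa3a (1.76), Etl4 (1.64), B430010I23Rik (1.59), Inmt (1.50), Cldn5 (1.47), B3galt2 (1.43), Lgals4 (1.35), Hcar2 (1.27), Car4 (1.26), Ephx2 (1.24), Pbld1 (1.17), Bhlhb9 (1.08) and Slc22a5 (0.69). The negative ones were Angptl8 (-2.58), Mogat2 (-2.34), H3c15 (-2.22), Rhbdl3 (-1.77), Trabd2b (-1.55), Dclk1 (-1.53), Adamts5 (-1.37), Cdkn2b (-1.31), Igfals (-1.30), Rbm28 (-1.21), Calhm6 (-1.20), Grb14 (-1.16), Diras2 (-1.16), Irf8 (-1.15), Cyb5b (-1.15), Mcoln2 (-1.01), Sc5d (-0.98), Dgat2 (-0.80) and Mxra8 (-0.71). The interaction differed between diets for Acacb (3.37) and Mxra8 (-1.16).

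Single arrays stood far from the rest of their group in 13 of 195 tests on genes, where chance gives about 1 in 20. The count is near that share, which is only a rough guide. Some genes were not named independently of array 45: Zdhhc21 passed only without it, and Tinagl1 was named for its likeness to Rbp7. Only groups of 5 arrays were tested, so the KO vehicle group of 3 arrays was left out. KO AM251 array 45 stood apart for Rbp7 (10.14), Pbld1 (5.99), Zdhhc21 (5.48), Cnr1 (4.95), Itgax (9.08) and Tinagl1 (10.5). WT AM251 array 37 stood apart for Hsd17b7 (7.56), H3c15 (6.81) and Lep (12.14), and array 34 for Ephx2 (11.5). The others were Inmt on KO AM251 array 49 (11.57), Cldn5 on WT vehicle array 6 (11.17) and Grb14 on WT vehicle array 5 (9.08).

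Array measures gave 4 such values in 18 tests: the genotype index (57.5%) and macrophage marker sum (27007.6) of array 45, and the epididymis and testis marker sums of WT AM251 array 36 (15714) and WT vehicle array 3 (1834.17).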

How the results depend on the processing

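The interaction count of 78 moved by over 1.5 times when only the 4 groups were fitted (39), with array weights (294), with every probe set on its own (42), with genes above the median intensity (153) and without arrays 3 and 36 (42, chosen after seeing the data). Leaving out 1 array gave 1 to 279. The WT count of 213 was 20 in a fit of its 2 groups and 34 to 632 with 1 array left out: 632 without WT AM251 array 34, 49 without 35, 34 without 37, 54 without WT vehicle array 4 and 106 without 5. Under quantile normalization its split was 131 up and 105 down. The KO count was 0 under every setting but 1 without KO vehicle array 42. The diet count of 2 was 0 with every probe set, and 0 to 6 with 1 array left out. The cause of these shifts was not tested. No called interaction of a named gene changed sign in any setting run. Of those not called, Zdhhc21 (-1.11) was 0.025 on the brightest probe set over the 18 high-fat arrays, and Slc7a10 (0.014) ran from -0.075 to 0.14 with 1 array left out. Single other probe sets of Cnr1 (0.16), Dclk1 (0.26) and Ivns1abp (-0.14) had the opposite sign to the one used. No paired analysis was possible because the 4 groups share no replicate numbers.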
